A study of Mus musculus with 12 samples.

Results

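The genes described here are the 136 of 331 named genes on a focused metabolic array (41.1%) whose liver signal did not exceed the detection limit of the array in any of 12 mice. The limit of each array was the mean plus 2 SD of the foreground of its 25 empty spots and 16 spots of 4 negative control sequences. A gene was a member when its foreground, the brightness of its spot in scanner units on a linear scale, was at or below that limit on all 12 arrays. The foreground of these arrays therefore chose the members, so levels relative to the limit are given as a description with no test. Of the other names, 159 were above the limit on all 12 arrays and 36 on 1 to 11 of them.

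Liver RNA came from 12 male ApoEshl mice, a strain with a defect of apolipoprotein E, so both groups are deficient in that lipid carrier. In the fucoidan group, 6 mice ate for 12 weeks a high-fat diet to which 5% fucoidan had been added; fucoidan is a sulphate-bearing polysaccharide of brown algae. In the HFD group, 6 mice ate the high-fat diet alone for 12 weeks. The age label of all mice is 7 to 8 weeks and does not say whether this is the age at the start of the diet. Mice on a normal diet or with less fucoidan were not analysed here, so both groups compared had the high-fat diet. The study asked how fucoidan changes hepatic genes of lipid and carbohydrate metabolism. All arrays lie on 1 slide image with the fucoidan mice in the later blocks and the HFD mice in the first ones, so slide position and diet cannot be told apart.

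Many metabolic genes have a tissue-restricted relative. The liver takes up glucose through Slc2a2, while muscle and fat use the insulin-regulated transporter Slc2a4. Peptide hormones such as insulin, glucagon, leptin and adiponectin are made by islet cells or adipocytes and reach the liver through the blood, where only their receptors or downstream enzymes are needed. In a piece of whole liver, fewer cells of a type and less RNA per cell cannot be told apart.

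The label of the tissue was checked against marker lists. Of 17 hepatocyte genes on the array, 16 were above the limit on all 12 arrays and the remaining one, Hnf4a, on some of them. All 9 housekeeping names were above it on all 12 arrays, so 0 of these 26 names are members. The Apoe spot was above the limit on all 12 arrays, and since no source used here gives the position of its probe relative to the strain's defect, it does not check the genotype.

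Whether these genes are silent depends on which blank spots set the limit. The limit averaged 130 ± 6.99 units in fucoidan mice and 134 ± 7.13 units in HFD mice (SD, n = 6 each), a difference within the spread between mice (exact two-sided permutation test over the 12 mice, p = 0.264). Empty spots averaged 101.7 ± 3.79 units in fucoidan mice and 104.6 ± 4.59 units in HFD mice. Spots carrying foreign control DNA averaged 60.4 ± 0.75 units in fucoidan mice and 60.9 ± 0.84 units in HFD mice. On all 12 arrays the dimmest empty spot was brighter than the brightest negative control spot, so bare slide gave more light than spots with non-matching DNA. The local background around the spots tells the same: the foreground was below the spot's own background in 100% of 192 readings of negative controls, in 93.4% of 1632 readings of members and in 52.3% of 300 readings of empty spots.

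**Figure D1:**
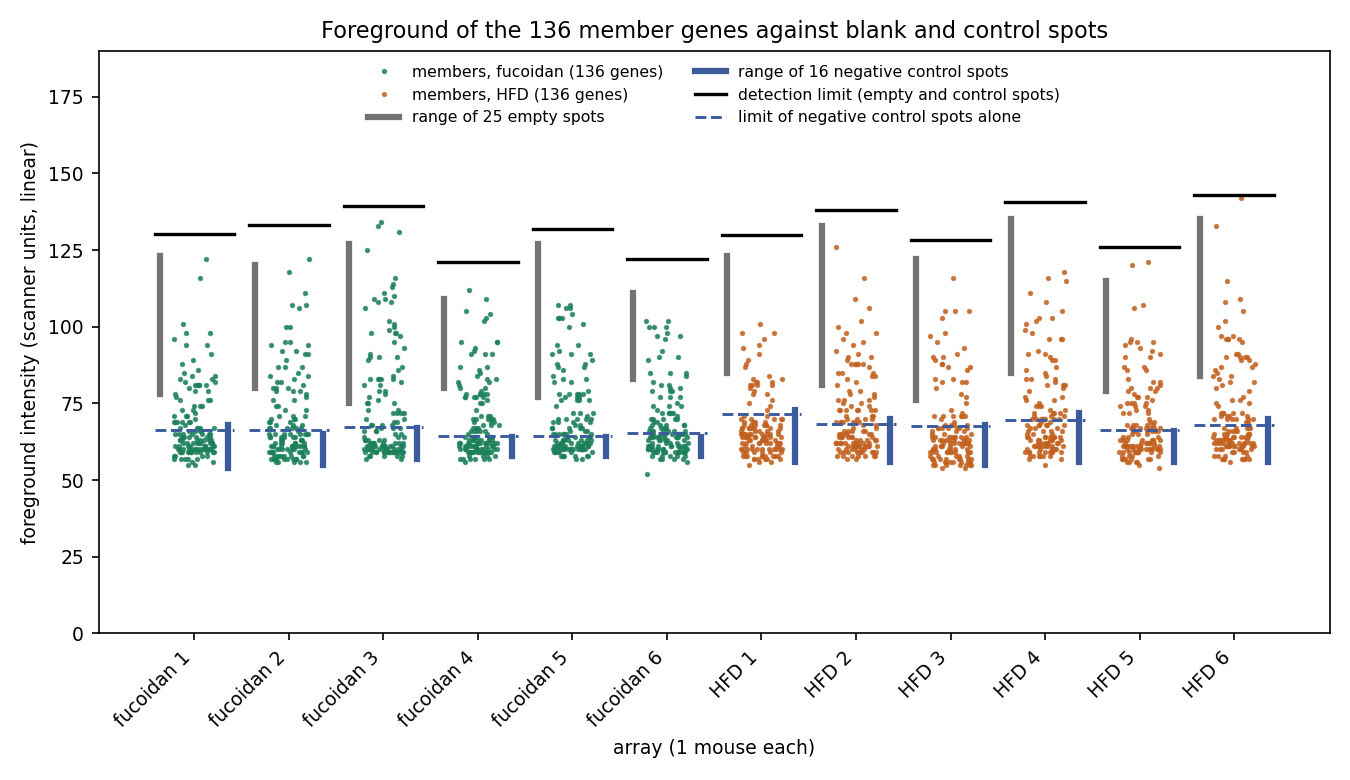
Foreground intensity (linear scanner units) of the 136 member genes on each of the 12 arrays, fucoidan mice on the left, with the ranges of 25 empty spots (grey bars) and 16 negative control spots (blue bars), the detection limit (black line) and the limit of the negative controls alone (dashed line). The densest part of the members lies within the range of the negative control spots, and an upper tail reaches into the range of the empty spots.

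A second limit was drawn from the 16 negative control spots alone (their mean plus 2 SD). Against this limit, which was 65.6 ± 1.18 units in fucoidan mice and 68.6 ± 1.80 units in HFD mice, the members fell into 3 bands. This lower limit differed between the groups by -2.99 units (fucoidan minus HFD, exact two-sided permutation test, p = 0.00433). A gene of equal foreground thus exceeds it more easily on fucoidan arrays. Where the number of arrays above it is given for each group below, it is a description and no comparison of diets. The first band held 51 members at or below this lower limit on all 12 arrays. The second held 58 members that were above it on 1 to 11 arrays. The third held 27 members that were above it on every array, and the word silent does not describe those: their signal exceeded that of non-matching DNA on every array while staying below a limit set mostly by empty spots. The bands were set from the same foregrounds and carry no test. Their median foreground as a share of the detection limit was 45.7%, 51.9% and 67.3%.

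Some member spots hold values that cannot be taken at face value, and they bear on the counts. The listed difference of a spot should equal its foreground minus its background, and this failed by more than 0.5 units on at least 1 array for 41 gene spots, 6 of them members: Agtr1b (11 arrays), Bcl2l1 (10), Csf1 (8), Dusp4 (7), Rbp4 (3) and Pdpk1 (1). For Bcl2l1 on fucoidan array 3, the table lists a difference of -1025 beside a foreground of 90 and a background of 91. Of these spots, 3 also list the foreground of another member whose own arithmetic holds. Dusp4 has the same foreground and background as Pfkm on all 12 arrays.

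Bcl2l1 has the foreground and background of Prkaa1 on all 12 arrays with the diet groups exchanged: the values of Bcl2l1 in fucoidan mice 1 to 6 are those of Prkaa1 in HFD mice 1 to 6, and the reverse. Agtr1b lists in each diet group the same 6 foregrounds that Ppp1r1b lists in the other group, 9 of the 12 in the same order. How these values came about was not tested. Without the 6 spots, 130 members remained, with 51, 56 and 23 in the 3 bands. Counts and medians below are over all 136 members, these 6 included, unless values without them are given.

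**Figure D2:**
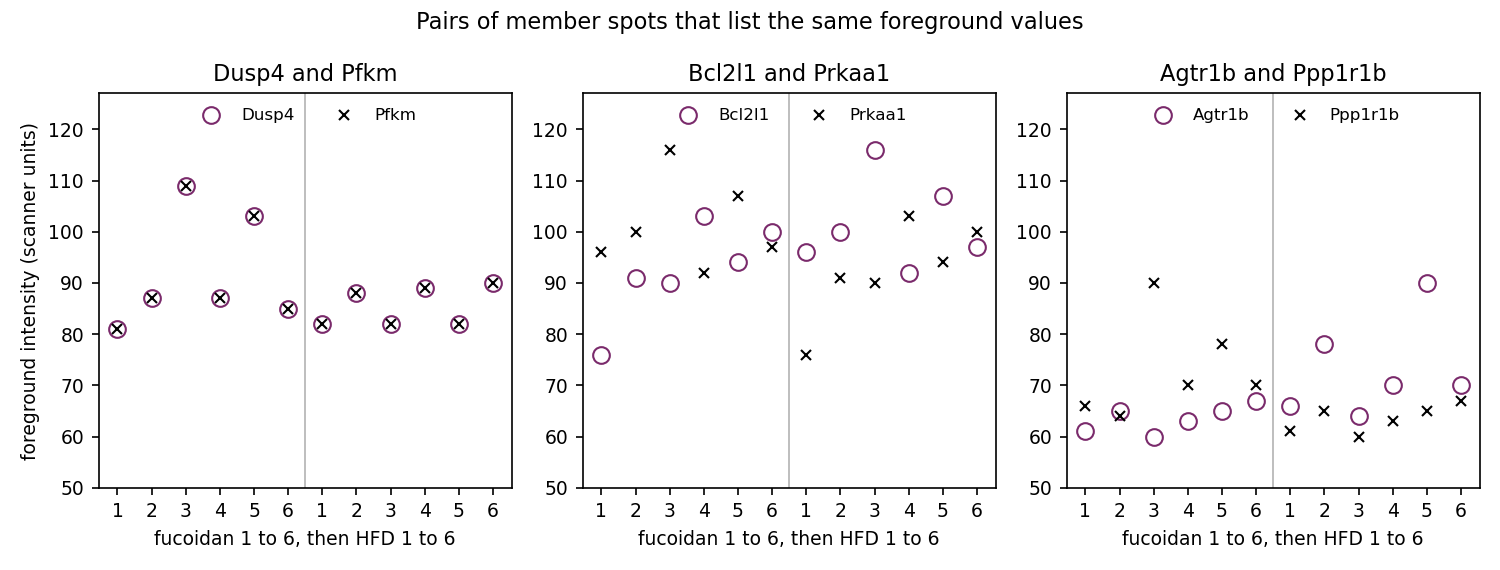
Foreground intensity (linear scanner units, axis starting at 50) of 3 pairs of member spots on fucoidan arrays 1 to 6 and then HFD arrays 1 to 6. Dusp4 (circles) and Pfkm (crosses) coincide on all 12 arrays, while Bcl2l1 and Agtr1b list in one diet group the values that Prkaa1 and Ppp1r1b list in the other.

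Promoter sequences of 4 members are shown to place the gene names in the genome, 2 from the band at the negative control level and 2 from the band above it on all arrays. They are RefSeq promoters of build GRCm38.p6, written 5′ to 3′ on the gene's strand over the 150 bases before the start, with each CG dinucleotide and the motif TATAAA in capitals. Gcg lies at chr2:62483654-62483803 on the minus strand, Retn at chr8:3655620-3655769, Jak2 at chr19:29251653-29251802 and Prkaa1 at chr15:5143711-5143860, these 3 on the plus strand.
Gcg: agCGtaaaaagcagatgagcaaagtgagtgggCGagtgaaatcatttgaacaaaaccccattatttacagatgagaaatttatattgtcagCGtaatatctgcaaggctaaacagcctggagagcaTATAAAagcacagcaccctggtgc
Retn: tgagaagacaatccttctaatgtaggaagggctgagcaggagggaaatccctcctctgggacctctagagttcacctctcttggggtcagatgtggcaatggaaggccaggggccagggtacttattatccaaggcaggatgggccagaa
Jak2: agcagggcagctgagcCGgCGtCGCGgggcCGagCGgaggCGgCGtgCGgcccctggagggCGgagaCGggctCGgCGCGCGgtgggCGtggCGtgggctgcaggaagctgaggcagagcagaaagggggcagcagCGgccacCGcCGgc
Prkaa1: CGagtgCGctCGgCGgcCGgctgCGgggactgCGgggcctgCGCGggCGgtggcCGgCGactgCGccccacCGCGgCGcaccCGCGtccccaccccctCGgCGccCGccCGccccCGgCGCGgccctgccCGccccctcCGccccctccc

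Gcg holds 3 CG and Retn 0, against 20 in Jak2 and 27 in Prkaa1, where 85.3% of 27025 promoters of the table hold at least 1 and the median is 4. TATAAA, searched on both strands in the last 50 bases, is found in Gcg and not in the other 3, and in 3.78% of all promoters. These 4 were picked by name after the values were seen, so the contrast between them cannot stand for the bands. Only 96 of the 136 members (70.6%) have a promoter in the table, which limits a comparison of bands. Over 250 upstream bases, the median CG count was 8 (quartiles 2 and 12) in 33 promoters of the control-level band. It was 12 (5 and 21.5) in 42 of the mixed band and 18 (9 and 26) in 21 of the upper band. TATAAA on the gene's strand in the last 50 bases was found in 5, 2 and 0 of these. Outside the rule, the median CG count was 21 in 26 promoters of genes above the detection limit on 1 to 11 arrays. For genes above it on all 12 arrays it was 14 in 119 promoters, lower than in the upper band. TATAAA was found in 0 and 7 of these promoters. The CG count thus did not rise steadily with signal over the array, and the differences were not tested. In the 150 bases shown the ranges of the bands overlap. Camkk1, at the negative control level on all arrays, holds 18 CG, and Pfkm, above it on all arrays, holds 1.

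Islet and gut hormone genes were the class most fully at the level of non-matching DNA. Of 14 names of this class, 10 are members, and 8 of those were at or below the negative control limit on all 12 arrays. Foregrounds in the following are given as the lowest, median and highest of the 6 mice of a group. Insulin (Ins2) gave 58, 60.5 and 63 units in fucoidan mice, against 59, 61 and 64 units in HFD mice. Glucagon (Gcg), the islet hormone that raises hepatic glucose output, gave 60, 61.5 and 63 units in fucoidan mice, against 61, 64 and 65 units in HFD mice. The groups overlapped for both hormones, and no array of either diet rose above its negative control limit.

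Amylin (Iapp), which beta cells release with insulin, gave 58, 60 and 61 units in fucoidan mice and 60, 62 and 65 units in HFD mice. The beta cell transcription factor Pdx1 was among the 10 members furthest below the limit, with 55, 58 and 61 units in fucoidan mice and 55, 57 and 60 units in HFD mice. The receptor of glucagon-like peptide 1 (Glp1r) was also at or below the negative control limit on 12 arrays, and it gave 59, 61 and 63 units in fucoidan mice and 59, 62.5 and 66 units in HFD mice. Neurod1, a transcription factor of islet and nerve cells, exceeded that limit on 1 fucoidan array, and Abcc8, the sulphonylurea receptor subunit of the beta cell potassium channel, on 1 HFD array. Of the gut hormones, ghrelin (Ghrl) gave 57, 59 and 60 units in fucoidan mice and 59, 61.5 and 65 units in HFD mice. The incretin Gip gave 60, 60 and 61 units in fucoidan mice and 61, 62 and 63 units in HFD mice, so the groups meet at 61 units. Of 9 genes on the islet list, 7 are members, and the other two, Ffar1 and the glucagon receptor Gcgr, were above the detection limit on all 12 arrays.

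Adipocyte genes divided between members and detected genes. Of 15 names on the adipocyte list, 8 are members: Adipoq, Adrb3, Lep, Lipe, Plin, Retn, Slc2a4 and Ucp1. That share is 53.3%, beside 41.1% of all names on the array. Leptin (Lep), the satiety hormone of fat, gave 59, 59 and 62 units in fucoidan mice and 55, 58.5 and 62 units in HFD mice. Resistin (Retn), an adipokine of mouse fat, gave 57, 58 and 60 units in fucoidan mice and 56, 58.5 and 59 units in HFD mice. Both stayed at or below the negative control limit on all 12 arrays, as did Plin, the lipid droplet coat protein perilipin, the beta-3 adrenergic receptor Adrb3, the heat-producing Ucp1 of brown fat, and Slc2a4.

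Adiponectin (Adipoq), an insulin-sensitising adipokine, gave 59, 60 and 61 units in fucoidan mice and 59, 64 and 69 units in HFD mice, and exceeded the negative control limit on 1 HFD array. Hormone-sensitive lipase (Lipe) stood apart from the other 7: it was above that limit on all 12 arrays, with 82, 89 and 111 units in fucoidan mice and 80, 89 and 99 units in HFD mice. On the same list, Agt, Cfd, Fabp4, Lpl and Pbef1 were among the genes above the detection limit on all 12 arrays, and Pparg was above it on some. The retinol carrier Rbp4 is known as a product of hepatocytes as well as of fat, yet it is a member, with 52, 66 and 74 units in fucoidan mice and 58, 59 and 93 units in HFD mice. Its spot is 1 of the 6 with failed arithmetic, on 3 arrays.

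**Figure D3:**
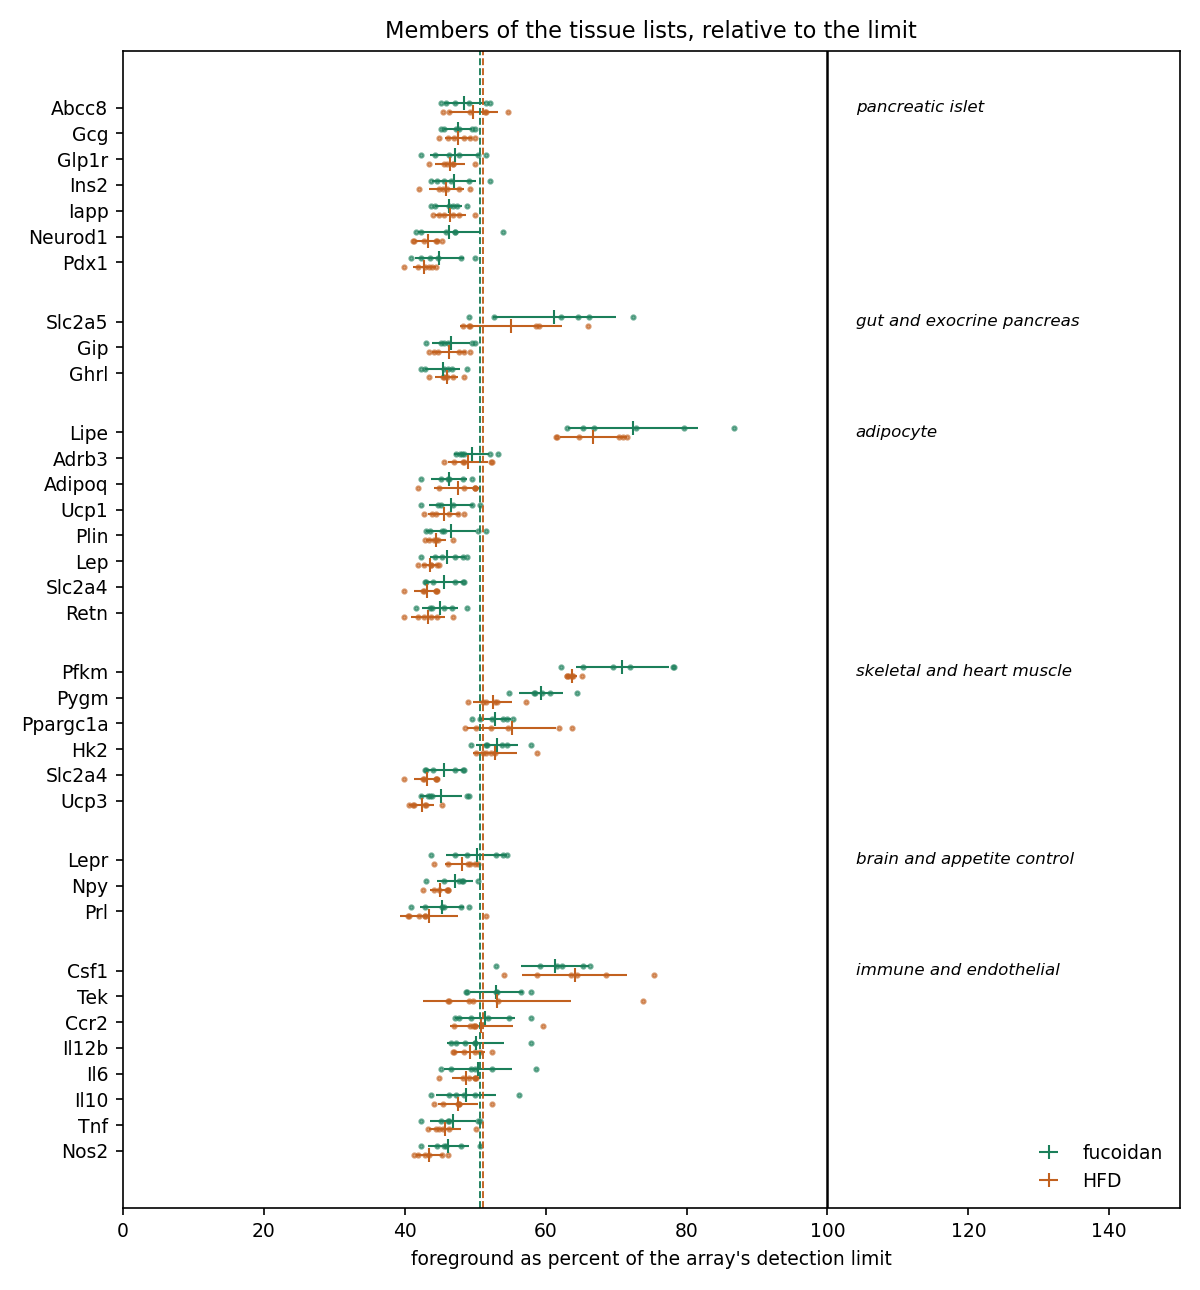
Foreground of the members of 6 tissue lists as percent of each array's detection limit (solid line at 100), 1 point per mouse, with the mean (tick) and SD (bar) of 6 fucoidan mice drawn above those of 6 HFD mice; dashed lines mark the mean limit of the negative controls. Slc2a4 stands on 2 lists. Most islet, gut, adipocyte and brain genes lie left of the dashed lines. Lipe, Pfkm, Slc2a5, Csf1, Pygm, Hk2, Ppargc1a and Tek lie to the right of these lines on average in both groups.

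Muscle genes were less uniformly at the control level. Of 7 listed names, 6 are members, and Ucp3 and Slc2a4 alone were at or below the negative control limit on all 12 arrays. Ucp3, an uncoupling protein of muscle mitochondria, gave 57, 58.5 and 60 units in fucoidan mice and 55, 57 and 58 units in HFD mice. Hexokinase II (Hk2) gave 63, 68 and 77 units in fucoidan mice and 63, 69.5 and 84 units in HFD mice, above the negative control limit on 5 fucoidan and 3 HFD arrays. Muscle glycogen phosphorylase (Pygm) gave 73, 76.5 and 83 units in fucoidan mice and 66, 71 and 73 units in HFD mice, and exceeded that limit on 6 fucoidan and 4 HFD arrays.

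The groups touched at 73 units for Pygm and overlapped for Hk2 and Ucp3. Muscle phosphofructokinase (Pfkm) was above the negative control limit on all 12 arrays, with 81, 87 and 109 units in fucoidan mice and 82, 85 and 90 units in HFD mice. Its spot passes the arithmetic check but shares its values with Dusp4. The coactivator Ppargc1a, which drives mitochondrial genes in muscle and gluconeogenic genes in the fasted liver, gave 66, 66.5 and 76 units in fucoidan mice and 63, 69 and 91 units in HFD mice. The seventh listed gene, the muscle fatty acid carrier Fabp3, lies just outside the rule.

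Isoform families often held both members and detected genes. Of 16 families with at least 2 names on the array, 11 held a member beside a gene above the detection limit on all 12 arrays, 2 held members and no such gene, and 3 held no member. Over the whole array, 136 of 331 names are members and 159 were above the limit on all 12 arrays. With shares of this size many families hold both kinds, so the count of 11 is not read as a split by isoform. The hepatic glucose transporter Slc2a2 was above the detection limit on all 12 arrays and Slc2a3, Slc2a4 and Slc2a5 on none, while Slc2a1 was above it on some arrays. The same held for liver glycogen phosphorylase Pygl and the brain and muscle forms Pygb and Pygm, and for Ucp2 and the members Ucp1 and Ucp3. The neuronal glucose transporter Slc2a3 gave 56, 59 and 60 units in fucoidan mice and 57, 57.5 and 61 units in HFD mice, and the fructose transporter Slc2a5 gave 64, 79.5 and 101 units in fucoidan mice and 63, 75 and 83 units in HFD mice. Pygb gave 59, 61.5 and 64 units in fucoidan mice and 56, 60 and 63 units in HFD mice.

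Other families did not divide by tissue in this way. None of the 6 fatty acid binding proteins on the family list is a member: beside the liver form Fabp1, the gut form Fabp2, the fat form Fabp4 and the brain form Fabp7 were above the detection limit on all 12 arrays. Fabp9, which is not on that list, is a member. Of the pyruvate kinases, the liver form Pklr was above the limit on all 12 arrays and Pkm2, the form of many other tissues, on 9. All 3 acyl-CoA synthetases (Acsl1, Acsl4 and Acsl5) were above it on all 12 arrays. Of the insulin receptor substrates, Irs2 was above it on 5 arrays and the other two names are members, and the liver factors Foxa2, Hnf4a and Tcf2 were above it on 3, 8 and 1 arrays.

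Signalling and transcription families also held members beside detected genes. The regulatory subunit Pik3r1 of phosphoinositide 3-kinase was detected on all 12 arrays, and the catalytic subunits Pik3cb and Pik3cg on none, with medians of 82 and 64 units in fucoidan mice and 75.5 and 63.5 units in HFD mice. Ppara, the main PPAR of liver, was detected on all 12 arrays and Pparg on some. Ppard gave 65, 70 and 76 units in fucoidan mice and 67, 70.5 and 85 units in HFD mice, and Ppargc1b 64, 68 and 75 units in fucoidan mice and 59, 75.5 and 81 units in HFD mice.

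Cebpa and Cebpb, liver-enriched factors, were detected on all 12 arrays, and Cebpd was a member with 70, 72.5 and 79 units in fucoidan mice and 68, 73 and 83 units in HFD mice. Foxo1, which activates gluconeogenic genes, was detected on all 12 arrays, and Foxc2, a regulator of fat and lymphatic vessels, gave 63, 64.5 and 68 units in fucoidan mice and 63, 65 and 69 units in HFD mice. Among lipases, Lpl, Lipc and Pnpla2 were detected on all 12 arrays and Lipe was not. Among apolipoproteins, Apoa1, Apoa2, Apoc3 and Apoe were detected on all 12 arrays and Apod on none, with 57, 63 and 65 units in fucoidan mice and 60, 62.5 and 64 units in HFD mice. Probes differ in brightness for the same amount of RNA, so the distance of a gene from the limit describes its spot and does not rank the amounts of RNA of different genes.

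Neuronal genes and genes of pituitary, thyroid and steroid hormones supplied 12 and 13 of the members. Of 20 names for nerve cells and vesicle release, 12 are members, and 0 of those were above the negative control limit on all 12 arrays. Neuropeptide Y (Npy), a hypothalamic peptide that stimulates feeding, gave 59, 60.5 and 64 units in fucoidan mice and 58, 60 and 64 units in HFD mice. The synaptic genes Snap25 and Syp were at or below that limit on all 12 arrays. The leptin receptor Lepr, whose long form acts in the hypothalamus, exceeded it on 2 fucoidan and 2 HFD arrays, with 61, 64.5 and 71 units in fucoidan mice and 58, 64 and 71 units in HFD mice. The groups overlapped for Npy and Lepr.

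Of 17 names for pituitary, thyroid and steroid hormones, 13 are members and 8 were at the negative control level on all 12 arrays, among them the thyrotropin subunit Tshb, its receptor Tshr, thyroglobulin (Tg) and the vitamin D receptor Vdr. Prolactin (Prl) gave 57, 58.5 and 60 units in fucoidan mice and 54, 57.5 and 67 units in HFD mice. Of 13 names of the adrenergic and angiotensin system, 10 are members, 9 without the spot of Agtr1b, and the prohormone Agt, a known liver product, was detected on all 12 arrays.

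Immune genes gave a mixed picture. Of 40 names, 18 are members, 17 without the spot of Csf1, and 18 others were detected on all 12 arrays, among them the acute-phase and complement genes C3, Cfb, Crp and Hp that hepatocytes make. Members are 45% of this class, beside 41.1% of all names on the array, so the count is not read as a trait of immune genes. Tumour necrosis factor (Tnf) gave 59, 60.5 and 62 units in fucoidan mice and 57, 61.5 and 66 units in HFD mice. Inducible nitric oxide synthase (Nos2) gave 58, 59.5 and 62 units in fucoidan mice and 55, 59 and 60 units in HFD mice. Both stayed at or below the negative control limit on all 12 arrays.

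The chemokine receptor Ccr2, carried by recruited monocytes, gave 62, 68 and 70 units in fucoidan mice and 64, 68 and 75 units in HFD mice and exceeded that limit on 4 fucoidan and 3 HFD arrays. The anti-inflammatory cytokine Il10 gave 61, 62 and 68 units in fucoidan mice and 61, 63.5 and 66 units in HFD mice. Of the tumour necrosis factor pathway, the adaptors Tradd and Traf2 were above the negative control limit on all 12 arrays although their ligand was not above it on any. The endothelial receptor Tek gave 65, 69 and 70 units in fucoidan mice and 60, 66.5 and 102 units in HFD mice. Of 19 names for vessels and matrix, 13 are members, and Dpt and Vegfb were above the negative control limit on all 12 arrays. Wnt pathway genes followed with 8 of 11 names, and Wnt10b, a ligand that holds back adipocyte formation, was the member furthest below the detection limit, with 56, 58 and 61 units in fucoidan mice and 55, 57.5 and 59 units in HFD mice.

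Signalling genes of the insulin and energy pathways were the least at the control level. Of 59 names, 16 are members, 13 without failed spots, and 0 of the 16 were at the negative control level on all 12 arrays, while 10 were above it on all 12, 7 without failed spots. The insulin receptor (Insr), known to act in hepatocytes, gave 72, 83.5 and 91 units in fucoidan mice and 81, 89.5 and 96 units in HFD mice. Its substrate Irs1 gave 69, 69.5 and 81 units in fucoidan mice and 68, 77 and 86 units in HFD mice. Insr and Irs1 were picked once their values were known. Of the energy sensor AMPK, the catalytic subunit Prkaa1 gave 92, 98.5 and 116 units in fucoidan mice and 76, 92.5 and 103 units in HFD mice, and the regulatory subunit Prkab1 gave 88, 94.5 and 108 units in fucoidan mice and 84, 95.5 and 111 units in HFD mice. The groups overlapped for all 4 genes. Prkaa1 is the gene whose values stand, with the groups exchanged, at the spot of Bcl2l1.

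**Figure D4:**
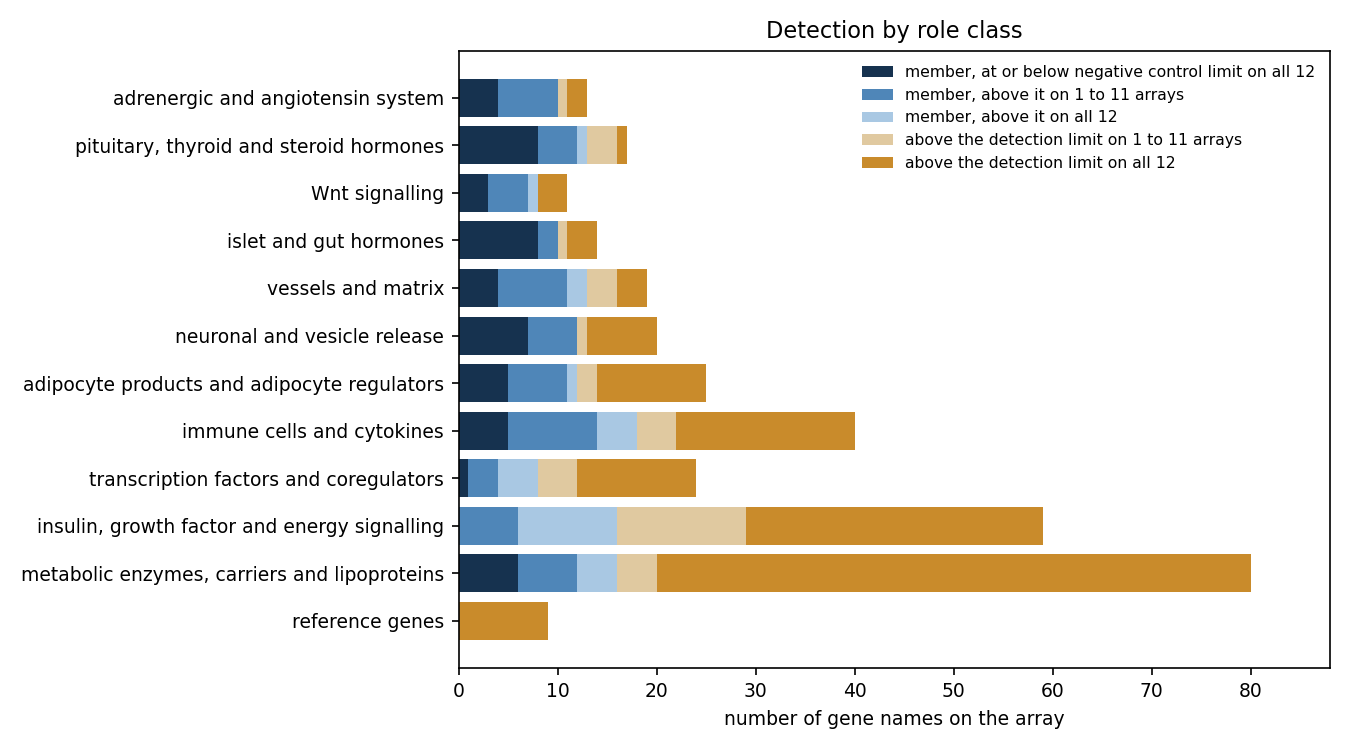
Number of gene names in each of 12 role classes, ordered by the share that are members, split into members at or below the negative control limit on all 12 arrays, members above it on 1 to 11 arrays, members above it on all 12, and genes above the detection limit on some or all arrays. Members at the control level are most numerous among islet and gut and among pituitary, thyroid and steroid genes (8 each), and the insulin class has 0.

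The enzyme class had the lowest member share after the reference genes, 16 of 80 names, beside 60 detected on all 12 arrays. Its 6 members at the negative control level were Fabp9, Me3, Pygb, Slc2a3, Slc2a4 and Ucp3. G6pdx, the first enzyme of the pentose phosphate pathway, and Me2, a mitochondrial malic enzyme, were above the negative control limit on all 12 arrays, as were Pfkm and the fatty acid transporter Slc27a1. Of 24 transcription factors and coregulators, 8 are members, and Creb1, Crebbp, E2f5 and Ncoa2 were above the negative control limit on all 12 arrays.

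The members nearest the limit were separated from the genes outside it by single readings. Tgfb1, a cytokine of fibrosis, averaged 85.7% of the limit, with 101, 114 and 134 units in fucoidan mice and 95, 111 and 133 units in HFD mice. The nuclear receptor coactivator Ncoa2, the matrix protein dermatopontin (Dpt), Cap1 and Tradd came next, at 78.8% to 81.2% of the limit on average. Just outside were 3 genes above the limit on 1 array each. Fabp3 gave 60, 63 and 176 units in fucoidan mice and 61, 64 and 68 units in HFD mice, Icam1 84, 89.5 and 101 units in fucoidan mice and 96, 110 and 173 units in HFD mice, and Tcf2 108, 113 and 159 units in fucoidan mice and 82, 112.5 and 136 units in HFD mice. For Fabp3 a single fucoidan reading decided that it is no member.

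Most members lay on average somewhat closer to the limit in fucoidan mice. The log2 ratio of foreground to limit had a median over the 136 members of -1.001 ± 0.072 in fucoidan mice and -1.040 ± 0.056 in HFD mice (SD over 6 mice each). In the band at the control level it was -1.11 ± 0.08 in fucoidan mice and -1.16 ± 0.06 in HFD mice, in the mixed band -0.95 ± 0.06 in fucoidan mice and -0.99 ± 0.04 in HFD mice, and in the upper band -0.50 ± 0.09 in fucoidan mice and -0.58 ± 0.05 in HFD mice. By gene, 110 members were on average closer to the limit in fucoidan mice and 26 in HFD mice, and without the 6 failed spots 107 and 23. Over those 130 members the median difference was 0.057 (fucoidan minus HFD), with a range of -0.14 for Trib3 to 0.24 for Ppp1r1b, the gene whose values also stand at the spot of Agtr1b.

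For 27 of the 130 the difference was larger than the SD of either group, and all 27 were closer to the limit in fucoidan mice. Among them, Pygm was at -0.75 ± 0.08 in fucoidan mice and -0.93 ± 0.07 in HFD mice, and the focal adhesion kinase Ptk2 at -0.77 ± 0.08 in fucoidan mice and -0.90 ± 0.04 in HFD mice (SD, n = 6 each). Pfkm, Prkaa1 and Ppp1r1b, whose values also stand at failed spots, are among the 27 too. The foregrounds that enter the distance from the limit chose the members, so this distance carries no test. All members of an array are divided by the same limit, so genes closer in one diet group are not independent counts. That limit was on average lower in fucoidan mice, and it divides the genes outside the rule as well. The same counts over all names of the array are not given, so the shift is not read as particular to the members.

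Other measured values moved with these counts. The limit itself differed by -4.7 units (fucoidan minus HFD), and the median foreground of the members was 64.7 ± 0.61 units in fucoidan mice and 65.3 ± 1.51 units in HFD mice. The array lists its spots in 2 sets, and 60 members lie in set A and 76 in set B. In set A the median member foreground was 64.6 units in fucoidan mice and 66.4 units in HFD mice, and the negative controls of that set averaged 61.6 and 63.4 units in those groups. In set B the median member foreground was 64.8 units in fucoidan mice and 63.3 units in HFD mice, beside negative controls at 59.3 units in fucoidan mice and 58.3 units in HFD mice. The median distance from the limit was -1.003 ± 0.067 in fucoidan mice and -1.015 ± 0.066 in HFD mice in set A, and -0.998 ± 0.082 in fucoidan mice and -1.084 ± 0.046 in HFD mice in set B. In each set the members and the foreign DNA were thus higher in the same diet group, and that group was not the same in both sets; the part of set and limit in these counts was not tested.

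The number of members above the negative control limit of their array was 62.2 ± 5.7 in fucoidan mice and 51.7 ± 14 in HFD mice, and it moves with that limit, which was lower in fucoidan mice. It was lowest on HFD array 1, with 28 members beside the highest negative control limit of all arrays, 71.5 units.

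**Figure D5:**
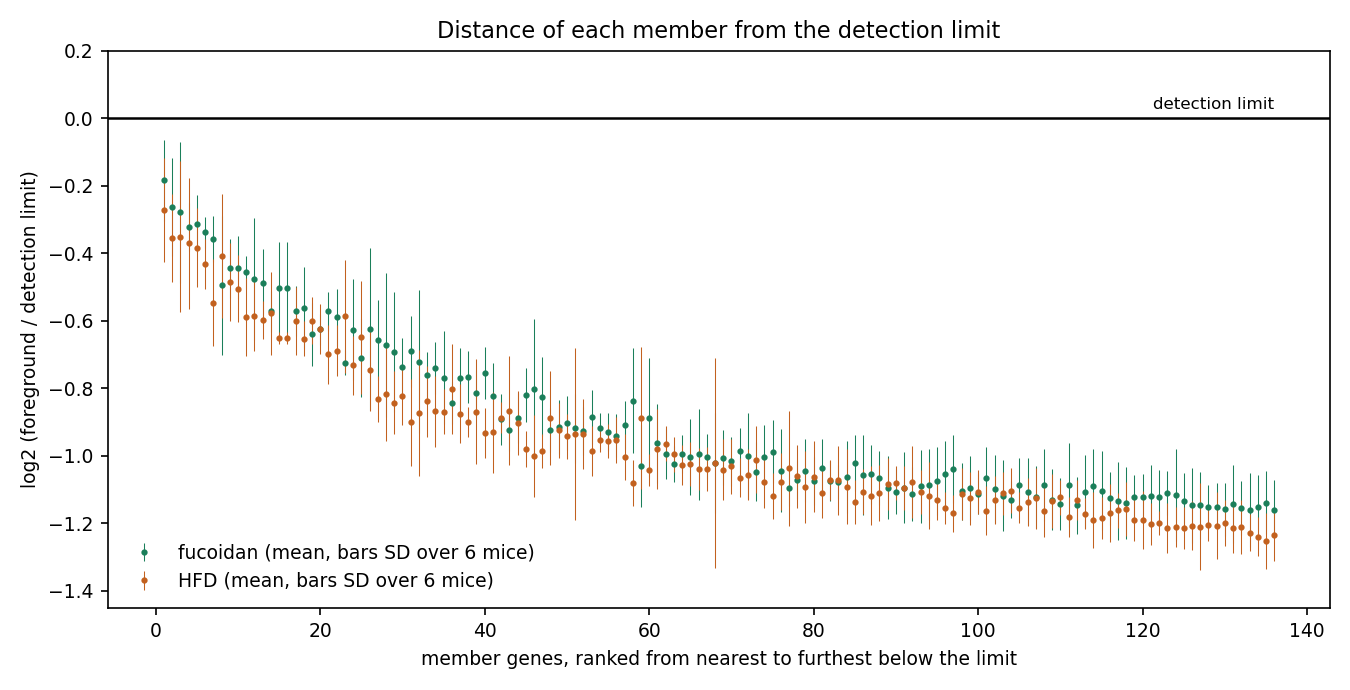
Log2 ratio of foreground to detection limit for each of the 136 members, ranked from nearest to furthest, as mean (points) and SD (bars) over 6 fucoidan mice and 6 HFD mice. The 10 members nearest the limit lie above -0.5 on average and 74 lie below -1, and the bars of the groups overlap along most of the ranking.

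Diet called almost no member. The intensities of all 331 names were compared between groups with limma after background correction and quantile normalisation, with Benjamini-Hochberg adjustment over all names and no filter on dim genes. The fit called 13 names at an adjusted p under 0.05, a background of 3.93%, and 1 of the 136 members. That member was Ptk2, called as higher in fucoidan mice (adjusted p = 0.039 by limma), a direction in which 2.11% of all names were called. Its foreground was 69, 76 and 86 units in fucoidan mice and 67, 72.5 and 76 units in HFD mice, so the groups overlapped. Both groups are below the detection limit, and no fold change is given.

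The call of Ptk2 was lost when other spots were left out. Of the 13 names called, 8 lie on spots with failed arithmetic, and with the 41 names on such spots left out of the fit, limma called 0 of 290 names and 0 of 130 members. An unadjusted p under 0.05 was seen for 16 of these 130 members, beside 45 of the 290 names not on failed spots. Ptk2 was also lost without HFD mouse 1, 2 or 5 or without fucoidan mouse 2, 3, 4, 5 or 6. At an unadjusted p under 0.05 the full fit marked 19 members, against a background of 19.9% of all names (66 of 331). The foreground of the groups did not overlap for 0 members, against a background of 3.93% of all names (13 of 331).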

How the data were processed

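Per the labels, 10 µg of liver total RNA of each of 12 mice was labelled with 1 dye for a focused cDNA array. A GenePix 4000B scanner (532 nm) and GenePix Pro 6.0.1.27 gave the readings, per the file headers. The deposited spot table holds intensity on a linear scale (foreground, local background and their listed difference), not scaled between arrays, and later steps are not given in the sources used here. A further table of intensity values deposited by the authors has 354 rows with no names, from -27 to 50344. Its column medians were 171, 155, 126, 102.5, 119 and 135 for fucoidan mice 1 to 6 and 139.5, 116, 132, 129.5, 121 and 113.5 for HFD mice 1 to 6. Its scale, centring and normalisation are unknown, and it was not used further. The spot table has 0 sample columns that went unused.

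Foregrounds of spots of 1 name were averaged geometrically (each member has 1 spot), and limits, bands and distances were computed in Python 3.11.15 (scipy 1.17.1, pandas 2.3.3 and numpy 2.4.6, with matplotlib 3.10.9 for figures). Of the 136 member names, 131 are current symbols of the RefSeq table and 5 were matched by a synonym (Agtrl1, Figf, Plin, Prkcb1 and Tcfap2a). For the comparison of diets, intensities were corrected with normexp (offset 50), quantile normalised over gene spots, put on the log2 scale and fitted in R 4.3.3 with limma 3.58.1 (statmod 1.5.0), tested on simulated data first. The exact permutation test over 6 and 6 mice has 924 splits and a smallest two-sided p of 0.00216. Precision is limited by 1 array per mouse, and p-values measure the spread between mice on 1 slide.

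Members, tissue lists and role classes were chosen with earlier results of these data known, and the 12 role classes were assigned by hand after the values were seen. Values are given for the 10 members nearest the limit and the 10 furthest, the 3 nearest and furthest of each tissue list, members of isoform families with a detected gene, called members, members on failed spots and genes above the limit on 1 array, 60 members in all; of these the ones the comparisons turn on are printed. A few genes are counted but not reported here by name. Other members were picked once their values were known. Alternatives tried were other limits, measures, background corrections, normalisations, priors, a replicate block, an exact permutation test and leaving out arrays.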

Additional observations from a re-analysis of the deposited data

Results flagged for a closer look

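In groups of 6 mice, a member was marked when 1 mouse lay far from the other five relative to the range of the group (Dixon's 95% criterion). This was the case in 11 of 126 groups examined for the genes named by rule and the array values, and in 26 of 272 groups over all members. For independent values of normal spread, chance marks about 1 in 20. Member readings are whole units, members of an array are not independent and some spots share values. That rate therefore cannot tell whether these counts are high. In fucoidan mice, Tradd gave 125 units in mouse 3 (others 95 to 106), and Ppargc1a 76 in mouse 3 (others 66 to 69). Of the fucoidan arrays, that of mouse 3 also had the highest detection limit (139.5 units). The median foreground of the upper band was highest there as well (106 units), so these 2 readings need not be particular to their genes. Il10 gave 68 units in fucoidan mouse 4 (others 61 to 63), Gip 61 in fucoidan mouse 6 (all others 60) and Lep 62 in fucoidan mouse 5 (all others 59). In HFD mice, Cap1 gave 142 units in mouse 6 (others 91 to 105), next to a limit of 142.8, and Ppard gave 85 in mouse 6 (others 67 to 71). Tek gave 102 units in HFD mouse 2 (others 60 to 70) and Prl 67 in HFD mouse 1 (others 54 to 58). Crebbp was low in HFD mouse 5 with 80 units (others 95 to 102), as was Gcg with 61 (others 64 to 65). For Gip, Lep and Gcg the gap is 1 to 3 scanner units.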

How the results depend on the processing

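The number of members stayed between 128 and 150 under all limits and array rules tried except 2: it was 51 with the limit from negative control sequences alone and 40 with such a limit from the spot's own set, the second chosen after seeing the data. It was 136 to 137 with each array left out, and 130 without failed spots. With the limit from negative control sequences alone, also added after seeing the data for lists, 2 muscle and 2 immune and endothelial genes remained of 6 and 8; the other tissue counts kept within 1.5 times. That limit was 2.99 units lower in fucoidan than in HFD mice (difference -2.99, exact permutation p = 0.00433), while the main limit's difference ranged from -6.68 to -2.98 with an array left out. The median distance in fucoidan and HFD mice was -0.73 and -0.76 with 1 SD, -1.23 and -1.27 with 3 SD, -1.18 and -1.25 with the median plus 2 MAD, and -0.020 and -0.072 with negative controls alone. The local background of the same spots gave -0.39 and -0.40, and the listed difference minus its limit -57.6 and -61.8 intensity units. With an array left out it ranged from -1.02 to -0.98 in fucoidan and from -1.06 to -1.02 in HFD mice.

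limma called 0 members without background correction, with the listed difference, without normalisation, with scaling to the limit or the median, and with failed spots left out of the fit or before normalisation. An exact permutation test called 0 members and 0 of 330 names, but its smallest possible p is 0.00216. After adjustment over 330 names, a few names at that floor cannot be called, so its 0 calls decide nothing. limma called 2 members with an offset of 16 (Foxc2, Ptk2), 4 with a trended, robust prior (with Tshb, Tshr), 6 at an adjusted p of 0.1 (with Ghrl, Gip), and 0 to 2 with an array left out. With the replicate number as a block it called 0 members and 8 names; the numbers do not pair the mice (correlations of same-numbered deviations -0.21 to 0.15). The cause of these changes was not tested. Signal over blank spots limits every statement: a gene below the limit may be expressed at a level this array does not show.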
